A study of Mus musculus with 12 samples.

Results

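The troponin subunit genes were followed as a family: Tnnt1, Tnnt2 and Tnnt3 (troponin T), Tnni1, Tnni2 and Tnni3 (troponin I), and Tnnc1 and Tnnc2 (troponin C). They were taken by gene symbol, each through the probe set that carries that symbol alone, and are 8 of the 19938 genes named on the array. RNA from quadriceps muscle of 12 C57Bl/6 pups at postnatal day 7 was hybridised to 12 Affymetrix Mouse Gene 1.0 ST arrays, by the study's methods from separate tissue of each mouse, with 6 arrays labelled KO (genotype cofilin-2 null) and 6 labelled WT (wildtype littermates). Sex is not among the labels. Values are log2 levels, so that a difference of 1 is a doubling, and every difference below is the arrays labelled KO minus the arrays labelled WT.

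Troponin is the calcium switch of the thin filament of striated muscle. Troponin C binds calcium, troponin I holds actin and myosin apart until calcium arrives, and troponin T ties the complex to tropomyosin. Fast fibres use Tnnt3, Tnni2 and Tnnc2, slow fibres use Tnnt1, Tnni1 and Tnnc1, and heart uses Tnnt2, Tnni3 and again Tnnc1. Tnnt2 is also transcribed in immature skeletal muscle and is replaced there as fibres mature.

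The targeted gene ran against the labels. Cfl2, which encodes the muscle isoform of the actin-severing protein cofilin, averaged 12.38 ± 0.06 on arrays labelled KO and 6.06 ± 1.02 on arrays labelled WT (SD, n = 6 each), a log2 difference of 6.32 ± 0.36 (SE, limma with Benjamini-Hochberg adjusted p = 1.98e-07). The groups are therefore called by their deposited labels throughout, so that higher and lower follow those labels and run opposite to the study's own direction. If the labels were exchanged, each difference would keep its size and turn its sign.

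Across the series, 6952 of 21789 probe sets passed limma at a Benjamini-Hochberg adjusted p of 0.05 (31.9%), 4250 of them higher on arrays labelled KO (19.5%) and 2702 lower (12.4%). The ranges of the groups did not overlap for 3349 probe sets (15.4%). Skeletal muscle fibre markers averaged 12.55 to 12.76 on arrays labelled KO and 12.44 to 12.77 on arrays labelled WT, and of these 8 markers 1 was higher (Myh4, by 1.70), 4 were lower (Ttn -0.40, Des -0.25, Myh8 -0.16 and Mylpf -0.14) and 3 did not pass, with a median of -0.15. Their part in the differences of the troponin genes was not tested. Adipocyte markers averaged 7.94 to 9.66 on arrays labelled KO, where the array KO5 held the 7.94 and the other arrays began at 9.40, and 7.89 to 8.77 on arrays labelled WT. In this mixed tissue, fewer cells of a type and less RNA per cell cannot be told apart. Xist, the RNA of the inactive X chromosome, was at 11.32 on the array KO1 and 9.76 on KO2, where the mean of the Y-linked genes was 6.38 and 8.06. On KO6 Xist was at 7.74 beside 9.42 for the Y-linked Eif2s3y. Whether each of these arrays held RNA of 1 mouse was not tested, and the n of 6 a group rests on the study's methods.

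Of the 8 troponin genes, 7 passed, 6 of them lower and 1 higher on arrays labelled KO. Of all probe sets 31.9% passed, 12.4% lower and 19.5% higher. The 7 became 4 after each array was centred on its median and 2 with the adipocyte level as a covariate. The 3 largest differences were those of Tnni1, Tnnc1 and Tnnt2, at 63.2%, 66.3% and 66.8% of the level on arrays labelled WT, which taken the other way round are folds of 1.58, 1.51 and 1.5. The fast genes Tnnt3 and Tnni2 were lower by much smaller amounts, Tnnc2 did not pass, and the cardiac gene Tnni3 was higher. The median difference of the 8 genes was -0.21, against -0.02 over all probe sets tested. The ranges did not overlap for 4 of the 8, namely Tnnt2, Tnnt3, Tnni1 and Tnni2, against 15.4% of all probe sets. These are ranges of the deposited values, without centring. Medians of whole arrays were also lower in the group labelled KO, at 6.35 to 6.41 against 6.42 to 6.46. The gaps of Tnnt3 and Tnni2 were only 0.03 and 0.01.

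**Figure D1:**
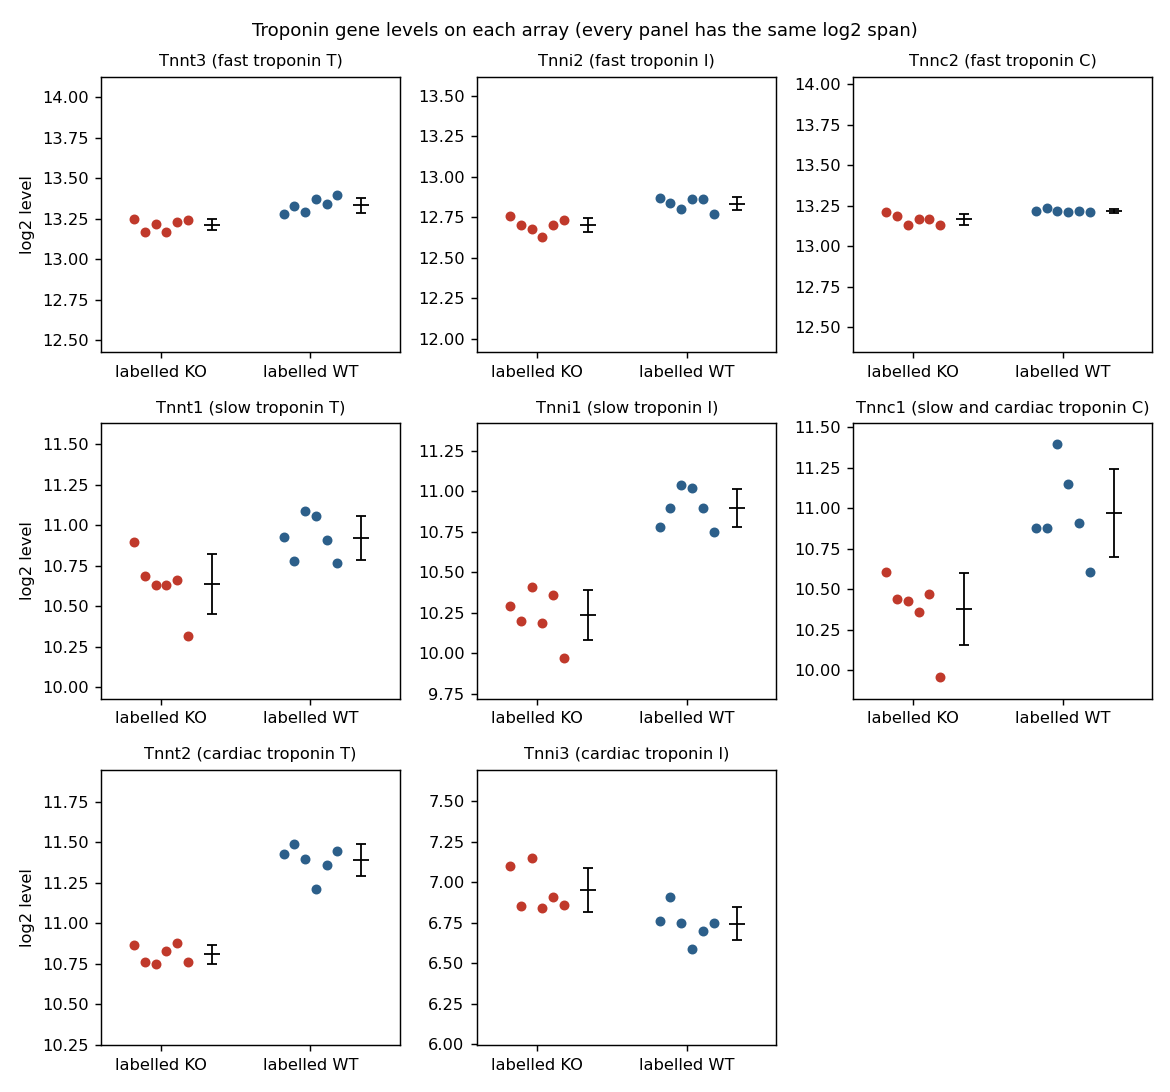
Log2 level of each troponin gene on the 6 arrays labelled KO (left, red) and the 6 labelled WT (right, blue), with the group mean and SD beside the points. Tnni1 and Tnnt2 are separated by gaps of 0.34 and 0.33, while Tnnc1 and Tnnt1 are lower on arrays labelled KO but have ranges that meet.

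The sequences before the start sites of Tnni1, Tnnt2, Tnnc1 and Tnni3 are shown because these genes gave the largest falls and the only rise. They are the 250 bases upstream of a RefSeq transcript start on the GRCm38.p6 assembly, read 5′ to 3′ on the strand of the gene, and 6 of the 8 members matched a promoter entry. Capitals mark the E-box word CANNTG, which myogenic factors such as MyoD can bind, and the MCAT word CATTCC on either strand, which TEAD factors can bind. Tnni1 at chr1:135799171-135799420 and Tnnt2 at chr1:135836084-135836333 lie on the plus strand, as does Tnnc1 at chr14:31208062-31208311, and Tnni3 at chr7:4522529-4522778 lies on the minus strand.
Tnni1: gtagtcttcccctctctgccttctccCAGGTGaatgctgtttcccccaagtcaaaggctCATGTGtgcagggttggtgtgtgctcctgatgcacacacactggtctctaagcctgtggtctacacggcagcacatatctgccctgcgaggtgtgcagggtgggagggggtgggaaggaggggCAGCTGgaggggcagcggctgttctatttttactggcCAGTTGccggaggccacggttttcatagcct
Tnnt2: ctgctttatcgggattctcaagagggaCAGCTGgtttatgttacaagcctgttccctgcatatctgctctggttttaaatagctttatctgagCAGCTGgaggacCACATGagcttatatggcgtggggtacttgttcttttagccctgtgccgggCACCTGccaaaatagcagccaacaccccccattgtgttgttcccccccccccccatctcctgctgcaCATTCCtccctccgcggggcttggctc
Tnnc1: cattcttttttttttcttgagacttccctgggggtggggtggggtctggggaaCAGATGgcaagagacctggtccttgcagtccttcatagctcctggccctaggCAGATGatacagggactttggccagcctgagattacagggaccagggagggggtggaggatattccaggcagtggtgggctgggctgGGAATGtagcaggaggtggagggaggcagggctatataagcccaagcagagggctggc
Tnni3: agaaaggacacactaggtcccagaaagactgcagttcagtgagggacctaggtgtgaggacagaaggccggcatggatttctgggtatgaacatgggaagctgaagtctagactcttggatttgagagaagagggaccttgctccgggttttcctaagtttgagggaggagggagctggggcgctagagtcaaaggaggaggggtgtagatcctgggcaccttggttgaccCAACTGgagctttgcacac

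The printed Tnni1 and Tnnt2 windows each held 4 E-boxes, the Tnnc1 window 2 and the Tnni3 window 1. Tnni1 and Tnnt2 each have a second RefSeq start, and the windows before those held 2 E-boxes for Tnni1 and 1 for Tnnt2, with no MCAT word in either. The second Tnni1 window overlaps the printed one, and its E-boxes CAGCTG and CAGTTG are sites already marked there. Over 32536 RefSeq promoter windows of the same length, 66.2% held at least 1 E-box on either strand and 12.6% held the MCAT word. The share of windows with 4 E-boxes was not counted, so this background does not place the counts above. The printed Tnnt2 window had an MCAT word beginning 27 bases before the start site and Tnnc1 had one on the opposite strand at 58 bases. Of the members not printed, Tnnt1 held 1 E-box and Tnnc2 held 2. The words are a description of the windows and were not tested as binding sites.

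Tnni1 encodes slow troponin I, the inhibitory subunit of slow fibres. Its log2 level was 10.29, 10.20, 10.41, 10.19, 10.36 and 9.97 on the arrays KO1 to KO6, against 10.78, 10.90, 11.04, 11.02, 10.90 and 10.75 on WT1 to WT6. All 6 arrays labelled KO lay below all 6 labelled WT. The means were 10.24 ± 0.16 and 10.90 ± 0.12 (SD, n = 6 each), a difference of -0.66 ± 0.07 (SE, 95% interval -0.82 to -0.50, limma adjusted p = 2.92e-05).

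Tnnc1 encodes the calcium sensor that slow fibres share with heart. It was at 10.61, 10.44, 10.43, 10.36, 10.47 and 9.96 on the arrays labelled KO, against 10.88, 10.88, 11.40, 11.15, 10.91 and 10.61 on those labelled WT. The highest array labelled KO tied with the lowest labelled WT, and the other 5 lay below all of the WT group. The difference was -0.59 ± 0.13 (SE, 95% interval -0.86 to -0.32, adjusted p = 0.00266).

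Tnnt1 encodes slow troponin T, whose loss causes a nemaline myopathy in humans. Its level was 10.90, 10.69, 10.63, 10.63, 10.66 and 10.32 on the arrays labelled KO, against 10.93, 10.78, 11.09, 11.06, 10.91 and 10.77 on those labelled WT. The groups overlapped through KO1 alone. The difference was -0.28 ± 0.09 (SE, 95% interval -0.47 to -0.10, adjusted p = 0.0204). It did not pass once each array was centred on its median (-0.23, adjusted p = 0.051).

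Tnnt2, cardiac troponin T, separated the groups with the least spread of the larger differences. It stood at 10.87, 10.76, 10.75, 10.83, 10.88 and 10.76 on the arrays labelled KO, against 11.43, 11.49, 11.40, 11.21, 11.36 and 11.45 on those labelled WT. No array of either group entered the range of the other. The means were 10.81 ± 0.06 and 11.39 ± 0.10 (SD, n = 6 each), a difference of -0.58 ± 0.05 (SE, 95% interval -0.69 to -0.48, adjusted p = 3.99e-06).

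Tnni3, cardiac troponin I, was the only member that was higher. It was at 7.10, 6.85, 7.15, 6.84, 6.91 and 6.86 on the arrays labelled KO, against 6.76, 6.91, 6.75, 6.59, 6.70 and 6.75 on those labelled WT. Only KO1 and KO3 lay above all of the WT group. The difference was 0.21 ± 0.07 (SE, 95% interval 0.06 to 0.35, adjusted p = 0.0285), and it did not pass without KO1 (0.18, adjusted p = 0.0623), KO3 (0.17, 0.0595), WT4 (0.18, 0.0553) or WT5 (0.20, 0.0567). Its mean level lay above that of 45.9% of the probe sets tested. The table gives no background value against which a level near 7 could be read.

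The fast genes differed by less. Tnnt3, fast troponin T, was at 13.25, 13.17, 13.22, 13.17, 13.23 and 13.24 on the arrays labelled KO, against 13.28, 13.33, 13.29, 13.37, 13.34 and 13.40 on those labelled WT. The groups were 0.03 apart at their nearest arrays. The difference was -0.12 ± 0.04 (SE, adjusted p = 0.018).

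Tnni2, fast troponin I, was at 12.76, 12.70, 12.68, 12.63, 12.70 and 12.73 on the arrays labelled KO, against 12.87, 12.84, 12.80, 12.86, 12.86 and 12.77 on those labelled WT. The nearest arrays were 0.01 apart. The difference was -0.13 ± 0.04 (SE, adjusted p = 0.0117). Neither fast difference passed after centring each array on its median, at -0.07 for Tnnt3 (adjusted p = 0.189) and -0.08 for Tnni2 (adjusted p = 0.133).

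Tnnc2, fast troponin C, averaged 13.17 ± 0.03 on arrays labelled KO and 13.22 ± 0.01 on arrays labelled WT (SD, n = 6 each), a difference of -0.05 ± 0.03 (SE, 95% interval -0.12 to 0.01, adjusted p = 0.214). The highest value anywhere in the table was 14.02, and whether levels near it compress the differences of the fast genes was not tested.

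**Figure D2:**
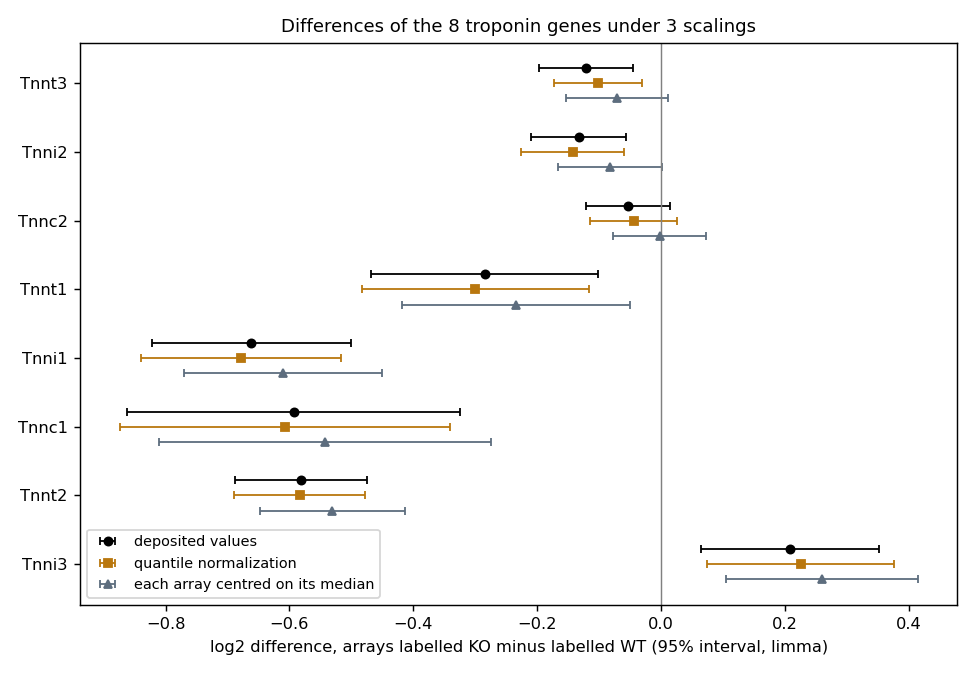
Log2 difference of each troponin gene, arrays labelled KO minus arrays labelled WT, with 95% intervals from limma, for the deposited values (circles), quantile-normalized values (squares) and arrays centred on their medians (triangles). Tnni1, Tnnc1 and Tnnt2 stay below 0 under all 3 scalings, whereas the intervals of Tnnt3 and Tnni2 reach 0 after centring.

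Whether isoforms of a subunit changed unequally was asked by subtracting one gene from another on each array and comparing these differences between the groups by an exact two-sided permutation test (924 assignments, smallest possible p = 0.00216, p adjusted over 7 contrasts). Levels of different probe sets are not comparable, so each value is a difference of differences. Slow minus fast troponin I was lower on arrays labelled KO by -0.53 (95% interval -0.72 to -0.35, exact adjusted p = 0.00378), and slow minus fast troponin C by -0.54 (-0.84 to -0.25, exact adjusted p = 0.00606). For troponin T, slow minus fast differed by -0.16 (-0.38 to 0.05, exact adjusted p = 0.147), an interval that holds 0, and by -0.09 without KO6.

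The contrasts of Tnnt2 and of Tnni3 with the other isoforms of their subunits went in opposite directions. Those of Tnni3 combine its own difference of 0.21 with the lower levels of Tnni2 (-0.13) and Tnni1 (-0.66). Tnnt2 minus Tnnt3 differed by -0.46 (95% interval -0.57 to -0.34) and Tnni3 minus Tnni2 by 0.34 (0.19 to 0.50), each with an exact adjusted p of 0.00378. Against the slow genes, Tnnt2 minus Tnnt1 differed by -0.30 (-0.54 to -0.05, exact adjusted p = 0.0303) and Tnni3 minus Tnni1 by 0.87 (0.67 to 1.08, exact adjusted p = 0.00378). Before adjustment the exact p of Tnnt2 minus Tnnt1 was 0.026 with all arrays, 0.0563 without KO1 (-0.26) and 0.0519 without KO2 (-0.28).

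Within the groups, the levels of the members were compared array by array. After each group's mean was removed, Pearson's r over the 12 arrays was 0.905 for Tnnt1 with Tnnc1, 0.842 for Tnni1 with Tnnc1 and 0.71 for Tnnt1 with Tnni1. The fast gene Tnnc2 had r of 0.562 to Tnnt1 and 0.425 to Tnnc1, but the groups were unlike. With Tnnt1 its r was 0.824 on arrays labelled KO and -0.366 on arrays labelled WT. With Tnnc1 its rho was 0.765 on arrays labelled KO and 0.0313 on arrays labelled WT. Tnnt2 had r of -0.113 to Tnnt1, -0.162 to Tnni1 and -0.129 to Tnnc1, values that join opposite signs, as with Tnnt1 it was 0.561 on arrays labelled KO and -0.69 on arrays labelled WT. These values are descriptions, since the arrays share hybridisation and tissue composition, and none of 56 within-group correlations passed adjustment. Tnnt1 with Tnnc1 had r = 0.967 over the 6 arrays labelled KO (exact permutation p = 0.00833, adjusted p = 0.207) and rho = 0.928 (exact permutation p = 0.0167, adjusted p = 0.311). Over the 6 labelled WT it had r = 0.902 (exact permutation p = 0.00556, adjusted p = 0.207) and rho = 0.899 (exact permutation p = 0.0278, adjusted p = 0.311). Without the 2 arrays farthest from the median of Tnnt1, r was 0.561 on arrays labelled KO and 0.834 on arrays labelled WT. Dropping them also narrows the range of Tnnt1, to 10.63 to 10.69 on arrays labelled KO. These values therefore cannot show what the correlation rests on. Tnnt1 with Tnni1 had r = 0.676 on arrays labelled KO and -0.343 there without such a pair of arrays. The array KO6 was lowest of its group for Tnnt1, Tnni1 and Tnnc1 alike, and WT6 was lowest of its own. WT3 and WT4 were the highest arrays labelled WT for these same genes. They had Xist at 11.5 and 11.67 and the Y-linked Eif2s3y at 4.78 and 5.08. KO3, with Xist at 11.08 and Eif2s3y at 5.97, was highest of its group for Tnni1 only. KO1, with Xist at 11.32 and Eif2s3y at 6.86, was highest of that group for Tnnt1 and Tnnc1. The part of sex in these correlations was not tested.

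**Figure D3:**
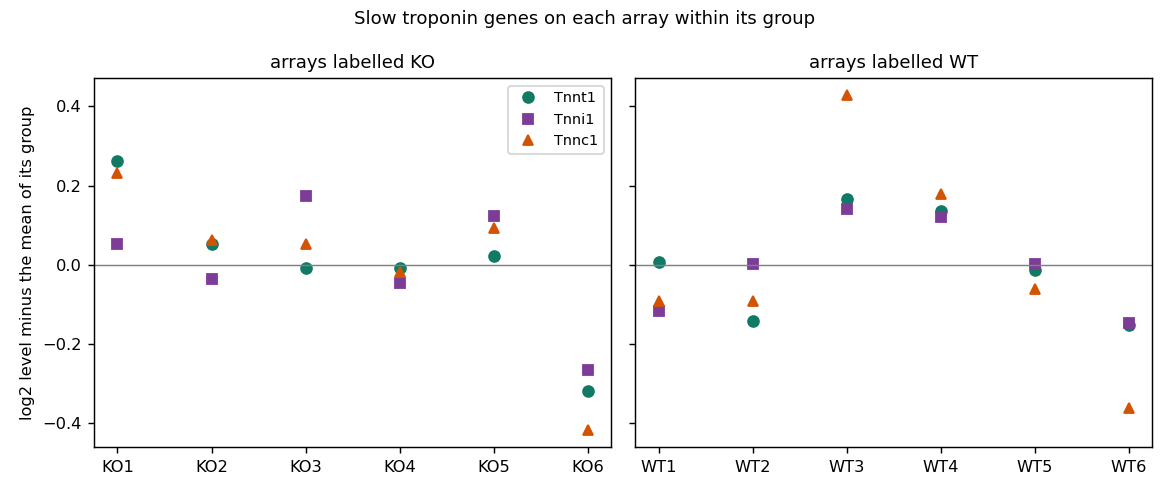
Log2 level of Tnnt1 (circles), Tnni1 (squares) and Tnnc1 (triangles) on each array minus the mean of its group, for arrays labelled KO (left) and labelled WT (right). All 3 genes are lowest on KO6 and on WT6 within their groups.

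Among 9746 genes at or above the median level (9747 for Tnni3), those most like each troponin gene that passed across the 12 group-centred arrays were found. Tnnt1 was followed most closely by Tnnc1 (r = 0.905), Myh6 (0.892) and Arhgap44 (0.851), and Tnnc1 by Cd9 (0.919), Tnnt1 (0.905) and Myl2 (0.894). Myh6 encodes a myosin heavy chain of heart, and Myl2 a myosin light chain of heart and slow fibres. Tnni1 was followed by Pmp2 (0.913), Oxct1 (0.894) and Kctd1 (0.873), and Tnnt2 by Mrps33 (0.93), Snw1 (0.917) and Pramel12 (0.916). Among the fast genes, Tnnt3 was followed by Mtrex (0.87), Usp15 (0.863) and Vamp5 (0.849), and Tnni2 by Gba2 (0.935), Msantd4 (0.912) and Ncoa2 (0.911). Tnni3 was followed by the thin filament gene Lmod2 (0.853), Ogfod2 (0.826) and D2hgdh (0.814). Each name is from the top of a ranking of 9746 or 9747 genes over only 12 arrays. How high r rises in such a ranking for unrelated genes was not tested, so the names are a description.

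Several troponin genes are neighbours. In the RefSeq gene table Tnni1 and Tnnt2 lie on chromosome 1 with Lad1 between them, Tnni2 and Tnnt3 on chromosome 7 with Lsp1 between them, and Tnnt1 next to Tnni3 elsewhere on chromosome 7. Lad1 differed by -0.17 ± 0.10 (SE, adjusted p = 0.226) and Lsp1 by -0.27 ± 0.10 (adjusted p = 0.0567), and neither passed. Phlda3, on the outer side of Tnni1, was lower by -0.78 ± 0.08 (adjusted p = 2.12e-05). Pkp1, beyond Tnnt2, was at -0.11 ± 0.07 (adjusted p = 0.23). Beside the fast pair, Syt8 was lower by -0.19 ± 0.06 (adjusted p = 0.0193) and Mrpl23 was at -0.10 ± 0.06 (adjusted p = 0.201). The adjacent pair Tnnt1 and Tnni3 differed in opposite directions, and their outer neighbours Ppp1r12c (-0.10 ± 0.04, adjusted p = 0.0674) and Dnaaf3 (-0.02 ± 0.06, adjusted p = 0.757) did not pass. Tnnc1 lies on chromosome 14 between Nisch (0.10 ± 0.04, adjusted p = 0.089) and Sema3g (-0.23 ± 0.06, adjusted p = 0.00628). Tnnc2 lies on chromosome 2 between Ube2c (0.69 ± 0.18, adjusted p = 0.00955) and Snx21 (-0.30 ± 0.05, adjusted p = 0.000795).

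The other genes of the fibre programme were counted in lists without the troponins. The members, these lists and the marker lists were chosen with earlier results of these data known. Their shares beside those of all probe sets are therefore descriptions. Of 18 fast fibre genes, 8 were higher, 3 lower and 7 did not pass, with a median difference of 0.10. The share that passed was 61.1%, against 31.9% of all probe sets. Myh4, the fastest myosin heavy chain, differed by 1.70 ± 0.27 (SE, adjusted p = 0.000397) and Phkg1, a phosphorylase kinase subunit, by 1.53 ± 0.09 (adjusted p = 3.03e-07). Of 17 slow fibre genes, 2 were higher, 7 lower and 8 did not pass (52.9% passed), with a median of -0.20. Ankrd2 differed by -1.23 ± 0.12 (adjusted p = 1.33e-05) and Csrp3 by -1.21 ± 0.10 (adjusted p = 3.99e-06), while the slow myosin Myh7 was at -0.39 ± 0.17 (adjusted p = 0.0956) and Myl3 was higher by 0.60 ± 0.18 (adjusted p = 0.0217).

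Of 19 cardiac and developmental sarcomere genes, 7 were lower, 0 higher and 12 did not pass by limma, with a median of -0.16. The share that passed was 36.8%, near the 31.9% of all probe sets, of which 12.4% were lower. Ankrd1, a stretch-responsive cofactor, differed by -2.22 ± 0.20 (SE, adjusted p = 5.11e-06), and Myh3, embryonic myosin, by -1.41 ± 0.14 (adjusted p = 1.18e-05). Centring each array on its median moved this list to 1 higher and 5 lower. The cardiomyocyte markers averaged 6.29 to 6.45 on arrays labelled KO and 6.39 to 6.52 on arrays labelled WT. Against 31.9% of all probe sets, 45.5% of these markers passed, with 3 of 11 lower and 2 higher. Their part in the difference of Tnnt2 was not tested.

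Of 22 thin filament genes, 8 were higher, 5 lower and 9 did not pass, so that 59.1% passed against 31.9% of all probe sets. Lmod2, an actin filament elongator, differed by -0.86 ± 0.13 (SE, adjusted p = 0.000231) and the tropomyosin gene Tpm4 by 0.63 ± 0.10 (adjusted p = 0.000467). Of 26 calcium handling genes, 5 were higher and 4 lower, 34.6% against 31.9% of all probe sets, and the balance turned to 4 higher and 6 lower under quantile normalization and was 6 and 2 after centring. Among those lower was Atp2a2, the calcium pump of slow fibres and heart, at -0.54 ± 0.06 (adjusted p = 1.82e-05). Of 42 regulators of fibre type and troponin genes, 5 were higher and 9 lower, 33.3% and so near the share of all probe sets, with 8 and 8 after centring. Tead3, a factor of the MCAT-binding family, differed by -0.48 ± 0.06 (adjusted p = 3.55e-05), while Tead1 (-0.06, adjusted p = 0.467), Tead2 (0.16, 0.0738) and Tead4 (-0.02, 0.888) did not pass.

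**Figure D4:**
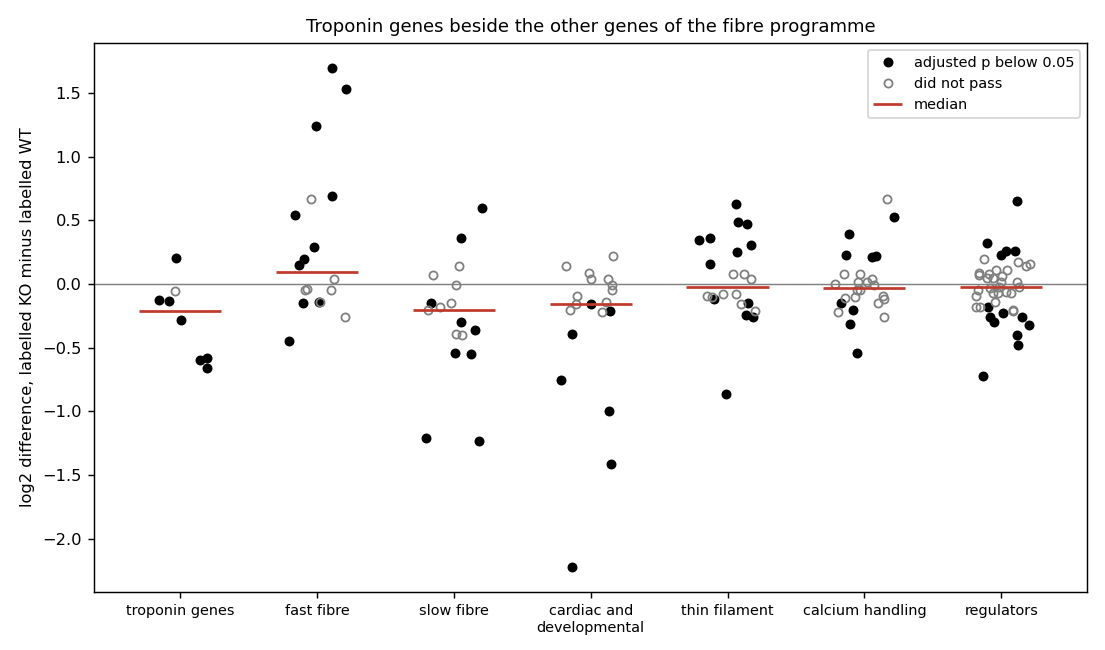
Log2 difference, arrays labelled KO minus arrays labelled WT, of the troponin genes and of the genes in each list (filled points passed an adjusted p of 0.05, open points did not, red lines are medians). The medians are -0.21 for the troponin genes, 0.10 for fast fibre genes and -0.20 for slow fibre genes.

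Markers of other cells also differed between the groups. Adipocyte markers were higher on arrays labelled KO for 6 of 10, macrophage markers for 6 of 8 and fibroblast markers for 5 of 7, against 19.5% of all probe sets. The fibroblast marker Pdgfra was lower (-0.29). So were 3 of 8 smooth muscle markers, among them Cnn1 (-0.95), with 1 higher, against 12.4% lower among all probe sets. The part of these cell markers in the troponin differences was not tested. On KO5, whose adipocyte level of 7.94 lay within the range of arrays labelled WT, Tnni1 was at 10.36, Tnnc1 at 10.47 and Tnnt2 at 10.88, each below all 6 arrays labelled WT. This is 1 array, from which no conclusion on tissue composition is drawn. Its macrophage level of 8.47 and fibroblast level of 11.69 lay above all arrays labelled WT, which reached 8.35 and 11.65. With the adipocyte level as a covariate only Tnni1 and Tnnt2 of the 8 still passed.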

How the data were processed

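Total RNA from separate quadriceps of 6 cofilin-2 null and 6 littermate wild-type pups was hybridised to Affymetrix Mouse Gene 1.0 ST arrays. The authors processed the scans with GCOS and Affymetrix Power Tools and deposited 1 log2 level per probe set and array. Their range set the scale as log2. For the summary algorithm, software version and genome build, the entry is "not given in the sources used here". All 35556 deposited rows entered without rescaling. Probe sets with exactly 1 symbol (21789) were tested with limma 3.58.1 in R 4.3.3 (lmFit and eBayes, arrays labelled KO against arrays labelled WT, Benjamini-Hochberg over all of them, threshold 0.05). The number of arrays, 6 per group, limits the precision. Isoform contrasts used exact permutation tests enumerated in Python 3.11.15, with Benjamini-Hochberg adjustment by scipy 1.17.1. The fit was tested on simulated data.

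Named were the 8 members, Cfl2, up to 4 passing genes of largest difference per list, locus neighbours and the 3 genes most correlated with each passing member; list genes that did not pass could be given too. Members and lists were chosen with earlier results of these data known. Alternatives were other normalizations, covariates, variance models, array weights, filters, each array left out, the methods' t-test and, chosen after seeing the data, leaving out 4 arrays that stood apart.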

Additional observations from a re-analysis of the deposited data

Results flagged for a closer look

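Among 78 groups of 6 arrays, 3 held an array whose distance from the nearest other was large for the range of its group, and chance alone flags about 1 group in 20. Tnnc2 was at 13.24 on the array WT2, against 13.21 to 13.22 on the other arrays labelled WT. Ankrd1 was at 10.07 on the array KO1, against 8.87 to 9.22 on the other arrays labelled KO. Tnnc1 minus Tnnc2 was -3.17 on the array KO6, against -2.81 to -2.60 on the other arrays labelled KO.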

How the results depend on the processing

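Tnni1 and Tnnt2 kept their direction and passed under all 24 alternatives run for each, and no member or contrast changed sign. The calcium handling list turned from 5 higher and 4 lower to 4 higher and 6 lower under quantile normalization. With the adipocyte level as a covariate, which follows the groups on all arrays but KO5, 2965 probe sets and 2 troponin genes passed, and 5 members were lost: Tnnt1 (-0.257, adjusted p = 0.265), Tnnt3 (-0.091, 0.351), Tnni2 (-0.144, 0.13), Tnni3 (0.179, 0.332) and Tnnc1 (-0.509, 0.118). Centring each array on its median left 4 troponin genes, without Tnnt1 (-0.234), Tnnt3 (-0.071) and Tnni2 (-0.082), and turned the split of calls from 61.1% higher and 38.9% lower to 77.8% and 22.2%. Leaving out KO1, KO2, KO5 and WT6, chosen after seeing the data, left 4539 probe sets and 5 troponin genes, without Tnnt3 (-0.112, adjusted p = 0.111) and Tnni3 (0.208, 0.135). KO1 and KO2 were taken for carrying both Xist and Y-linked signal, which is graded: Xist was also at 8.28 on WT2. KO5 was taken for its adipocyte level and WT6 for the lowest array weight (0.325). With the Y-linked level as a covariate 7045 probe sets and 7 troponin genes passed. The slow genes were then at -0.266 (Tnnt1, limma adjusted p = 0.0115), -0.644 (Tnni1, 1.06e-05) and -0.56 (Tnnc1, 0.00049). By the methods' t-test Tnnc2 passed too (-0.053, adjusted p = 0.0169), and 9003 probe sets lay below 0.05 unadjusted and 6342 after Benjamini-Hochberg. With the replicate block, Tnnt3 (-0.122, adjusted p = 0.0668) and Tnnt2 minus Tnnt1 (-0.297, unadjusted exact p = 0.0625) did not pass, and 6074 probe sets did. Same-numbered arrays correlated between -0.223 and 0.168 in their deviations, so the numbers were not taken as pairs.

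Leaving out 1 array at a time gave 5924 to 7155 probe sets and 6 to 7 troponin genes. The differences ranged from -0.337 to -0.221 for Tnnt1, -0.618 to -0.562 for Tnnt2, -0.133 to -0.109 for Tnnt3, -0.696 to -0.608 for Tnni1, -0.146 to -0.119 for Tnni2, 0.169 to 0.242 for Tnni3, -0.666 to -0.508 for Tnnc1, -0.062 to -0.046 for Tnnc2, -0.208 to -0.094 for Tnnt1 minus Tnnt3 and -0.36 to -0.248 for Tnnt2 minus Tnnt1. Averaging probe sets was not run, since each member has 1. The causes of these changes were not tested.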
